A study of Rattus norvegicus with 12 samples.

Results

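The genes described here encode the steps of glycolysis and gluconeogenesis, the enzymes and carriers of lactate, and the pyruvate dehydrogenase complex with its kinases and phosphatases. They were chosen as a list of 47 genes, and a gene was counted as measured where at least 1 probe set of the array carries its symbol and no other. Of the 47 genes, 42 were measured, by 64 of the 31042 probe sets tested, against 14217 genes measured in all. Of the measured genes, 25 had 1 probe set and 17 had several. The other 5 were not named by a probe set of 1 symbol. The probe sets of Gapdh and Pkm carry several symbols, and Hk3, Dlat and G6pc are unnamed here.

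Glycolysis splits glucose into pyruvate in the cytosol and yields ATP without oxygen, and most of its steps are run by a choice of isozymes that differ between tissues. Pyruvate then either becomes lactate, which leaves the cell through monocarboxylate carriers, or enters the mitochondrion, where the pyruvate dehydrogenase complex turns it into acetyl-CoA. Kinases (Pdk) switch that complex off and phosphatases (Pdp) switch it on. Gluconeogenesis runs the pathway backwards and uses its own enzymes, such as pyruvate carboxylase and the phosphoenolpyruvate carboxykinases, at the steps that cannot be reversed. Tumour cells are known for a high glycolytic flux, and several of these genes are known targets of the hypoxia factor HIF-1.

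RNA came from F111 cells, a rat fibroblast line, in 2 states, both cultured in Dulbecco's medium with fetal calf serum. A16 cells were plated on plastic and stayed adherent for 16 h. Colony cells descend from NA16 cells, which were F111 cells held in suspension for 16 h. They grew as colonies in soft agar for 7 days. By the methods, the agar was broken up and the cells that attached within a short time were used. Both states come from 1 line, and they differ at once in suspension, agar, time in culture and karyotype, which cannot be told apart. For karyotype, the paper reports a chromosome translocation in a minority of adherent cells and in all colony cells, and reads this as clonal selection. It also describes more of the other chromosome abnormalities in colony cells. The part of karyotype in the results below was not tested. Each group had 3 Affymetrix rat expression arrays. Values below give biological replicate 1 first, then the array labelled technical replicate 2, then biological replicate 2. The labels give the technical array no biological number. It was averaged with biological replicate 1 by choice, so that n = 2 cultures per group, which the labels call biological replicates. Colony biological replicate 2 has labels that disagree, since its source names tumour cells and the rest of its labels a colony. It is treated as Colony here, and where leaving it out moved a named probe set across the adjusted p or the fold threshold, both values are given.

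The fibroblast markers were present, with all 8 of 8 above the median brightness of the array. Of these, Col1a1, Col3a1 and Thy1 fell in Colony cells and 5 were not called. Among the 5, Col1a2 was lower, with a log2 FC of -0.61 (adjusted p = 0.0142) that stayed under the fold threshold. Pdgfra had a log2 FC of 0.55 (adjusted p = 0.0232), Pdgfrb 0.32, Vim 0.16 and S100a4 0.16. The summed RMA intensity of all 8 ran from 72909 to 83658 on A16 arrays and from 56044 to 60667 on Colony arrays. Of 5 leukocyte markers, Csf1r alone was called, with 44.9, 41.3 and 34.4 on A16 arrays and 824, 620 and 538 on Colony arrays, while Ptprc, Cd68, Itgam and Cd3e lay below the median brightness and were not called. Of 4 epithelial markers only Krt8 was called, with a log2 FC of 2.13, and none of 7 skeletal muscle or 5 hepatocyte markers was called. Under the fold threshold, the epithelial Cdh1 had 0.74 (adjusted p = 0.00979). The muscle markers Myh1 and Acta1 pointed apart, at 0.87 (adjusted p = 0.0277) and -0.91 (adjusted p = 0.00595). Cdh1 and Acta1 lay below the median brightness, and Myh1 lay at percentile 98.1. In bulk RNA fewer cells of a type and less RNA per cell cannot be told apart, and the part of these markers in the results below was not tested. Over all probe sets the SD of the log2 difference was 0.17 between A16 biological replicate 1 and the technical array. It was 0.22 to 0.33 for the other pairs within a group and 0.67 to 0.76 between groups, and the median RMA intensity of the arrays ran from 97.6 to 101. The Colony technical array lay nearly as close to biological replicate 2 (SD 0.24) as to biological replicate 1 (SD 0.22).

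A probe set was called where limma gave a Benjamini-Hochberg adjusted p under 0.05 over all 31042 probe sets and the fold change was over 2. The log2 fold change (log2 FC) is Colony minus A16 on log2 RMA intensity, with its standard error (SE). A gene is represented by its brightest probe set. By this rule 1 of the 42 genes rose (Pdk4), 2 fell (Pck2 and Ldhb) and 39 were not called. The share that rose was 2.38%, beside 4.36% of all genes, and the share that fell was 4.76%, beside 4.75% of all genes. Over probe sets, 1 of 64 rose (1.56%, beside 4.0% of all probe sets) and 4 fell (6.25%, beside 5.81%). With no fold threshold, 5 genes were higher (11.9%, beside 12.9%) and 4 lower (9.52%, beside 10.8%). In 18 of the 42 genes (42.9%) the 3 Colony arrays lay all above or all below the 3 A16 arrays, beside 47.6% of all genes. Of these 18 genes, 11 were higher and 7 lower. The median log2 FC of the 42 genes was 0.01, beside 0.05 over all genes, and the median size of the log2 FC was 0.27, beside 0.24. All these shares lie near the background or below it.

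**Figure D1:**
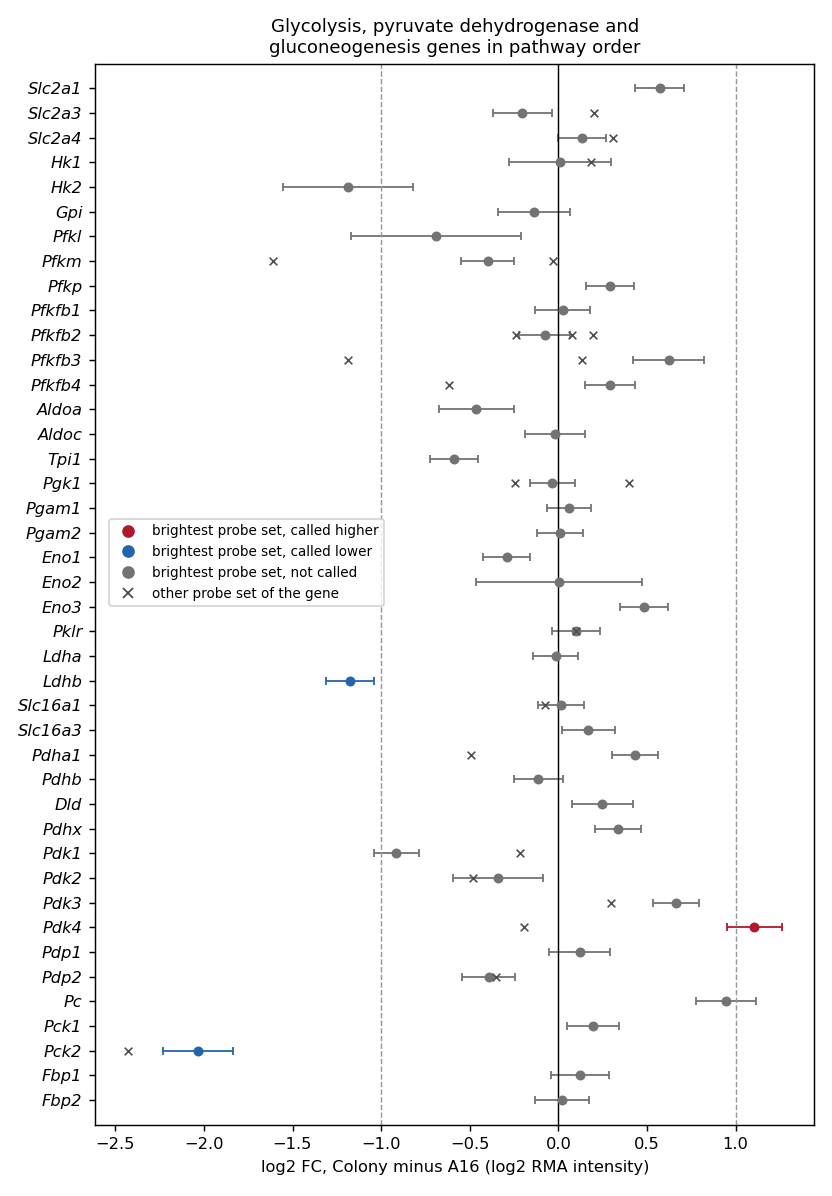
Log2 FC (Colony minus A16, log2 RMA intensity, horizontal axis) of the 42 measured genes in pathway order from glucose transport to gluconeogenesis. Points show the brightest probe set with its SE, crosses the other probe sets of the gene, and dashed lines a fold of 2. Pck2 lies farthest to the left at -2.03, and crosses far from their point mark Pfkm, Pfkfb3 and Pdk4.

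The upstream sequences of 4 genes are shown, the 3 called genes and Pdk1, the kinase gene that fell short of the fold threshold. Each is the 250 bases before the transcription start in RefSeq on build GRCr8, given 5′ to 3′ on the strand of the gene. Capitals mark ACGTG or GCGTG on either strand, the core letters of the element that HIF-1 binds.
Pck2, chr15:32997603-32997852, plus strand: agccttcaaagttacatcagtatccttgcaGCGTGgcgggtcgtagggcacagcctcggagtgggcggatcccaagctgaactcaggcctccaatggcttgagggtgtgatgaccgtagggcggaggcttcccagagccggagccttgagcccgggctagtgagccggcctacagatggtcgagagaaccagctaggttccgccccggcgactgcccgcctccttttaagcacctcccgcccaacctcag
Ldhb, chr4:177177409-177177658, minus strand: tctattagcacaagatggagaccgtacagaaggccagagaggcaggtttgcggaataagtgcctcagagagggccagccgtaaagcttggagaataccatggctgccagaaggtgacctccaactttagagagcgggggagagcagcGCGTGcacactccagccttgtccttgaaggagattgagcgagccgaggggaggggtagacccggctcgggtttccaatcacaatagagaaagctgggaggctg
Pdk4, chr4:34568330-34568579, minus strand: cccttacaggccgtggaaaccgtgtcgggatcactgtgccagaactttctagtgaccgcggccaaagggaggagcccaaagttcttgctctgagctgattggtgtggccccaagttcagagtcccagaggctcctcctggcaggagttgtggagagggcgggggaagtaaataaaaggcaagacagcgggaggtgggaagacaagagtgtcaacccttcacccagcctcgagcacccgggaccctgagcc
Pdk1, chr3:77113264-77113513, plus strand: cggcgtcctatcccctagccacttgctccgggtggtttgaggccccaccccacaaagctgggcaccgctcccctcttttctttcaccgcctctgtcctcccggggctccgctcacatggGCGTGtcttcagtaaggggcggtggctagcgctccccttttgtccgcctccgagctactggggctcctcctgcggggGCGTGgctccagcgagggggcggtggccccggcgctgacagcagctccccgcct
The core letters occurred 1 time in the windows of Pck2 and Ldhb, 2 times in that of Pdk1, and 0 times in that of Pdk4. RefSeq gave 39 start sites for 35 of the 42 measured genes. Of these 39 windows, 23 (59.0%) held ACGTG or GCGTG, beside 36.7% of the 33469 windows of all genes. The longer palindrome CACGTG, which contains ACGTG, was in 5 of 39 (12.8%), beside 5.59% of all. A match of letters is no binding site, and start sites of 1 gene can share sequence. The windows with the most matches belonged to Pdhb and Pdk3 with 5 each and Ldha and Slc2a1 with 4 each, and none of these genes was called. Each CACGTG counts as 2 overlapping matches here, 1 per strand. Pdhb held 2 such palindromes and Ldha 1, while Pdk3 and Slc2a1 held 0, so this order depends on the way of counting.

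Glucose enters through transporters of the Slc2a family. Slc2a1, the broadly expressed transporter GLUT1, had RMA intensities of 933, 950 and 878 on A16 arrays and 1483, 1387 and 1271 on Colony arrays. The groups did not overlap, and the log2 FC of 0.57 (SE 0.137, adjusted p = 0.0254) stayed under the fold threshold. The probe sets of Slc2a3 and of the insulin-regulated Slc2a4 were dim, below the median brightness of the array, and their 4 log2 FCs ran from -0.20 to 0.31.

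Hexokinase traps glucose as glucose 6-phosphate. Hk2, the isozyme induced in many tumours, had RMA intensities of 214, 158 and 422 on A16 arrays and 174, 114 and 106 on Colony arrays. The groups overlapped, since Colony biological replicate 1 read above the A16 technical array. A16 biological replicate 2 stood far above the other A16 arrays. The log2 FC of -1.19 (SE 0.366) missed the threshold with an adjusted p of 0.0608. The size of the difference turned on that group's cultures, since it was -1.79 without A16 replicate 1 and -0.59 without A16 replicate 2. Without Colony replicate 2 it was -0.98 (adjusted p = 0.213). Hk2 was called lower in 6 of 16 alternative fits, among them those without the dimmest probe sets (adjusted p = 0.0408), with a mean-variance trend (adjusted p = 0.0394) and with a replicate block (adjusted p = 0.0321). Hk1, the housekeeping isozyme, had 942, 1129 and 1335 on A16 arrays and 1636, 1559 and 874 on Colony arrays, with a log2 FC of 0.01 (SE 0.286). Here the third Colony array stood below the other two. Gpi, the next enzyme of the path, had a log2 FC of -0.14.

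Phosphofructokinase commits the sugar to glycolysis, and its muscle, liver and platelet isozymes are Pfkm, Pfkl and Pfkp. The 3 probe sets of Pfkm disagreed. The brightest, 1367864_at, had 418, 418 and 435 on A16 arrays and 381, 335 and 292 on Colony arrays (log2 FC -0.40, SE 0.149, adjusted p = 0.108). Probe set 1386961_at fell from 346, 263 and 398 to 110, 107 and 119, a log2 FC of -1.61 (SE 0.170, adjusted p = 0.00105). Probe set 1384632_at had a log2 FC of -0.03 (SE 0.131). So 1 of 3 probe sets of Pfkm was called, with groups well apart, another was lower on every Colony array by less, and the dimmest overlapped. For Pfkl the A16 arrays read 791, 854 and 2257 and the Colony arrays 1544, 846 and 622. This range within each group was wider than the difference between groups (log2 FC -0.69, SE 0.479, adjusted p = 0.376). Pfkp was higher on every Colony array by little, with 496, 482 and 481 against 640, 619 and 559 (log2 FC 0.29, adjusted p = 0.181).

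The Pfkfb enzymes make and remove fructose 2,6-bisphosphate, the activator of phosphofructokinase. Pfkfb3, the isoform known from proliferating cells, had 3 probe sets that moved in different directions. The brightest, 1390391_at, read 225, 254 and 322 on A16 arrays and 471, 499 and 376 on Colony arrays (log2 FC 0.62, SE 0.198, adjusted p = 0.0679). Probe set 1369794_a_at read 79.7, 68.4 and 163 on A16 arrays and 57.6, 54.9 and 41.4 on Colony arrays (log2 FC -1.19, SE 0.357, adjusted p = 0.0560). The third, 1397082_at, lay at 0.13. None of the 3 was called, and in both outer probe sets the groups did not overlap although they pointed apart, by 1.81 in log2 FC. Probe set 1369794_a_at was called lower in 7 of 16 alternative fits, among them the one with a replicate block (adjusted p = 0.0310), and it read -0.97 without Colony replicate 2 and was not called there (adjusted p = 0.204). The 2 probe sets of Pfkfb4 pointed apart as well, at 0.29 and -0.62, and neither passed. Pfkfb1 and the brightest probe set of Pfkfb2 had log2 FCs of 0.02 and -0.08.

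**Figure D2:**
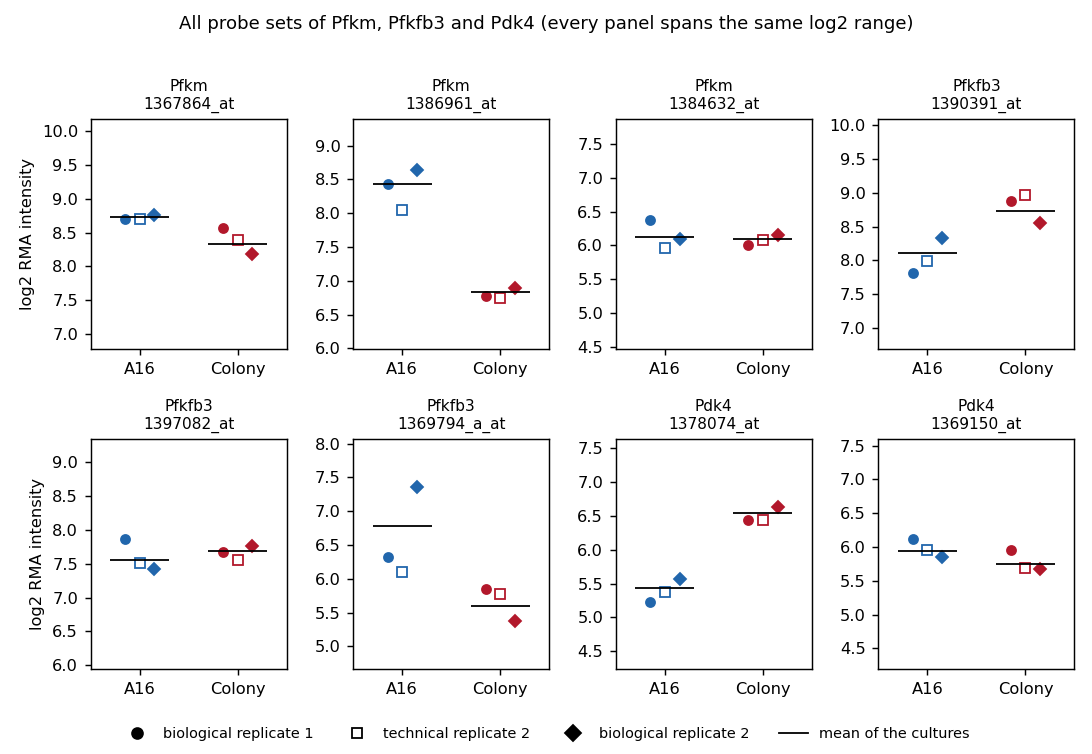
Log2 RMA intensity (vertical axis, every panel with the same span) of all probe sets of Pfkm, Pfkfb3 and Pdk4 on the 3 A16 and 3 Colony arrays. Lines are the means of the 2 cultures per group. Only Pfkm 1386961_at and Pdk4 1378074_at passed the test, and the other probe sets of these genes do not show the same separation.

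The middle steps were measured by some of the brightest probe sets of the array, with 9 of the 42 genes above the 95th percentile of brightness (Gpi, Aldoa, Tpi1, Pgk1, Pgam1, Eno1, Ldha, Pdha1 and Dld). Tpi1, which interconverts the triose phosphates, read 8959, 9601 and 8174 on A16 arrays and 6160, 5466 and 5759 on Colony arrays. It was lower on every Colony array, with a log2 FC of -0.59 (SE 0.135, adjusted p = 0.0211), and stayed under the fold threshold. Without Colony replicate 2 the log2 FC was -0.59 with an adjusted p of 0.0764. The log2 FC of Aldoa, the aldolase of muscle and most cells, was -0.46 (adjusted p = 0.178), and that of Aldoc, the brain aldolase, was -0.02. Pgk1 and Pgam1, the phosphoglycerate kinase and mutase, differed by -0.03 (SE 0.125) and 0.06 (SE 0.126).

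Enolase makes phosphoenolpyruvate. Eno1, the general isozyme, was lower on every Colony array by a log2 FC of -0.29 (adjusted p = 0.176). Eno3, the muscle isozyme, read 889, 929 and 830 on A16 arrays and 1333, 1236 and 1147 on Colony arrays. It was higher on every Colony array, with a log2 FC of 0.48 (SE 0.138, adjusted p = 0.0468) that stayed under the fold threshold. Without Colony replicate 2 it was 0.56 with an adjusted p of 0.0779. Eno2, the neuronal isozyme, read 515, 592 and 1689 on A16 arrays and 1144, 1051 and 853 on Colony arrays, so that its log2 FC of 0.00 (SE 0.467) averaged an A16 culture below the Colony cultures and one above them. Pklr, the liver pyruvate kinase, had dim probe sets and a log2 FC of 0.10.

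Lactate dehydrogenase is a tetramer of A and B subunits, and the A subunit favours the making of lactate. Ldhb, the B subunit, read 226, 244 and 255 on A16 arrays and 106, 124 and 102 on Colony arrays. It fell by 1.18 on the log2 scale (SE 0.137, adjusted p = 0.00156), from 7.93 ± 0.08 to 6.76 ± 0.12 (SD, n = 2 cultures), and the groups did not overlap. Ldha, the A subunit, read 12046, 12304 and 11700 on A16 arrays and 12298, 11460 and 11739 on Colony arrays, a log2 FC of -0.02 (SE 0.126). The log2 ratio of Ldhb over Ldha within an array changed by -1.16 between the groups, and its arrays did not overlap. The carriers of lactate, Slc16a1 (MCT1) and Slc16a3 (MCT4), had log2 FCs of 0.01 and 0.17, and neither passed.

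The pyruvate dehydrogenase complex holds the E1 subunits Pdha1 and Pdhb, the E3 subunit Dld and the binding protein Pdhx among the measured genes. None of the 4 was called, and by their brightest probe sets they ranged from -0.11 to 0.43 in log2 FC. The 2 probe sets of Pdha1 pointed apart, since the brighter read 3172, 3185 and 3379 on A16 arrays and 4300, 4266 and 4548 on Colony arrays (log2 FC 0.43, adjusted p = 0.0568). The other read 1907, 1846 and 2377 on A16 arrays and 1224, 1363 and 1750 on Colony arrays (log2 FC -0.49, adjusted p = 0.130). In both probe sets the A16 and Colony arrays were apart, but in opposite directions.

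The kinases that inhibit the complex did not move together. Pdk1, a hypoxia-induced kinase, read 369, 429 and 397 on A16 arrays and 210, 199 and 217 on Colony arrays. It was lower on every Colony array by a log2 FC of -0.92 (SE 0.127, adjusted p = 0.00317), an FC value of -1.89 that fell short of 2. Its other probe set, 1390203_at, had a log2 FC of -0.22 (adjusted p = 0.30). Pdk3 was higher on every Colony array, with 1018, 977 and 903 against 1472, 1494 and 1524 (log2 FC 0.66, SE 0.132, adjusted p = 0.0125), and its other probe set had a log2 FC of 0.30. Without Colony replicate 2 the brightest probe set of Pdk3 had 0.64 with an adjusted p of 0.0530. Pdk2 had -0.34 and -0.48 and was not called.

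Pdk4, the kinase known to respond to fasting and fatty acids, was the only gene of the list that rose. Its brightest probe set, 1378074_at, read 37.5, 41.4 and 47.5 on A16 arrays and 87.0, 87.2 and 99.6 on Colony arrays. The log2 FC was 1.11 (SE 0.154, adjusted p = 0.00320), from 5.44 ± 0.19 to 6.54 ± 0.14 (SD, n = 2 cultures), and the groups did not overlap. The probe set is dim, at percentile 38.3 of brightness. The other probe set of Pdk4, 1369150_at, lies at percentile 36.8 and read 69.2, 62.0 and 57.7 on A16 arrays and 62.1, 51.4 and 51.0 on Colony arrays (log2 FC -0.20, SE 0.141). The call for this gene therefore rests on 1 of 2 probe sets, which were of nearly equal brightness by RMA. Under the PLIER summary of the same arrays the log2 FC of 1378074_at was 0.76, under the fold threshold, and by RMA without A16 replicate 1 it was 0.97. By PLIER 1369150_at was the brighter of the 2 probe sets. It read 665, 507 and 506 on A16 arrays and 286, 392 and 581 on Colony arrays (log2 FC -0.29). The phosphatases Pdp1 and Pdp2, which reactivate the complex, had log2 FCs of 0.12 and -0.39 and were not called.

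**Figure D3:**
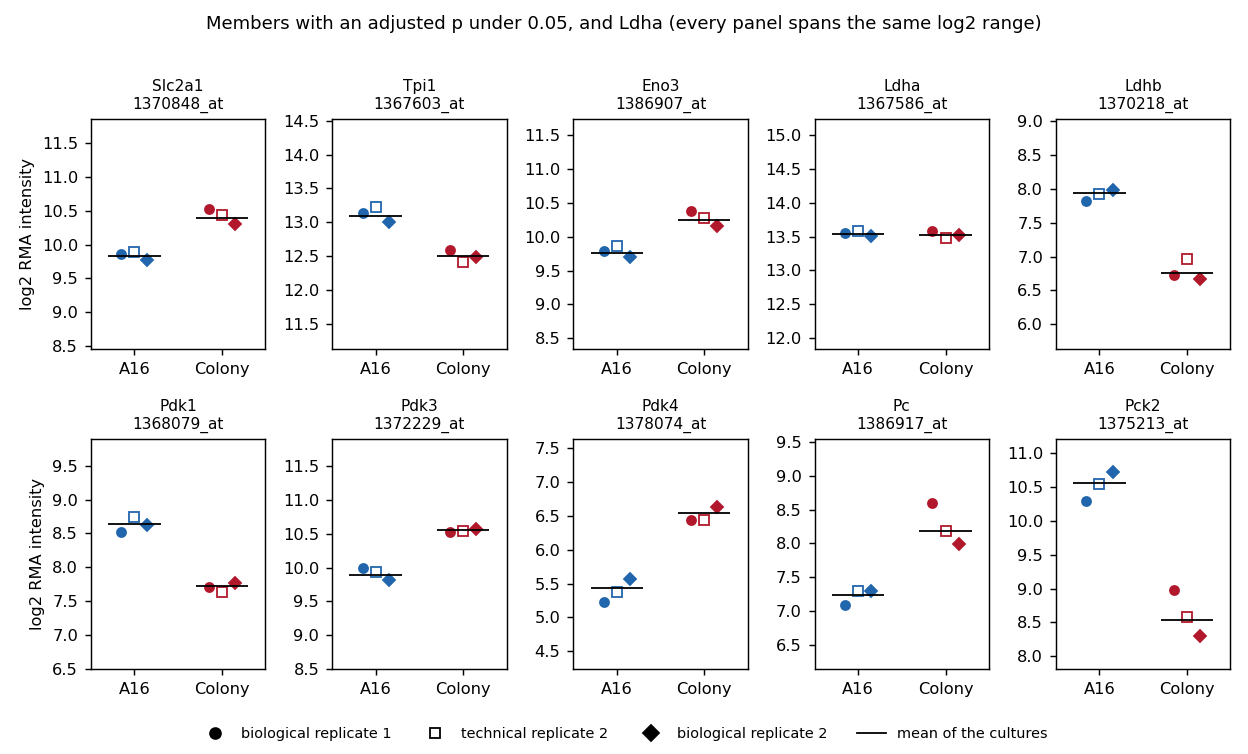
Log2 RMA intensity (vertical axis, every panel with the same span) on each array of the 9 genes with an adjusted p under 0.05 by their brightest probe set, and of Ldha. Lines are the means of the 2 cultures per group. The A16 and Colony arrays do not overlap in the 9 genes, and they do in Ldha.

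Pck2, the mitochondrial phosphoenolpyruvate carboxykinase, fell most of the 42 genes, by both of its probe sets. The brighter, 1375213_at, read 1261, 1490 and 1685 on A16 arrays and 503, 383 and 314 on Colony arrays. Its log2 FC was -2.03 (SE 0.199, adjusted p = 0.000760), from 10.57 ± 0.21 to 8.54 ± 0.34 (SD, n = 2 cultures). Probe set 1376247_at read 435, 480 and 661 on A16 arrays and 110.9, 94.6 and 102 on Colony arrays (log2 FC -2.43, SE 0.192, adjusted p = 0.000313). The groups lay far apart in both. Pck1, the cytosolic enzyme of liver and kidney, had a dim probe set and a log2 FC of 0.19 (adjusted p = 0.410).

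Pc, the pyruvate carboxylase that feeds oxaloacetate into gluconeogenesis and the citrate cycle, went the other way from Pck2. It read 136, 157 and 156 on A16 arrays and 385, 290 and 254 on Colony arrays, higher on every Colony array. Its log2 FC of 0.94 (SE 0.168, adjusted p = 0.00819) lay just under a fold of 2. Without Colony replicate 2, whose labels disagree, it was 1.14 and Pc was called. Fbp1 and Fbp2, the fructose bisphosphatases of liver and muscle, had dim probe sets and log2 FCs of 0.12 and 0.02.

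Shifts between isozymes were compared as 15 log2 ratios within an array, given as a description with no test. In 8 of the 15, dim ones included, the A16 and Colony arrays did not overlap. For single genes the share was 47.6% of all genes, and it was not computed for other pairs of genes. The count is therefore not read as a shift between isozymes. Ratios that rest on a dim probe set, such as Pck2 over Pck1, Slc2a3 over Slc2a1 and Pdk4 over Pdk1, are left out here. Eno3 over Eno1 changed by 0.77 and Hk2 over Hk1 by -1.20, and in both the A16 and Colony arrays did not overlap. By a narrow margin, the arrays were also apart for Pdp2 over Pdp1 (-0.51) and for Pdk2 over Pdk1 (0.57). The ratios Pfkm over Pfkl, Pfkp over Pfkl, Eno2 over Eno1 and Pfkfb4 over Pfkfb3 overlapped.

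Several genes of the path varied more between the cultures of a group than between groups. In A16, culture 2 differed from culture 1 by over 0.5 on the log2 scale in 3 of 42 genes (7.14%, beside 4.62% of all genes), namely Hk2 by 1.20, Pfkl by 1.46 and Eno2 by 1.61. In Colony cells the same held for 5 genes (11.9%, beside 5.43%), namely Pfkl by -0.88, Hk1 by -0.87, Pdk2 by -0.74, Gpi by -0.51 and Aldoa by -0.51. These are 7 genes in all, and in each of the 7 culture 2 read higher than culture 1 in A16 and lower in Colony cells. The Colony culture 2 is the one whose labels disagree.

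**Figure D4:**
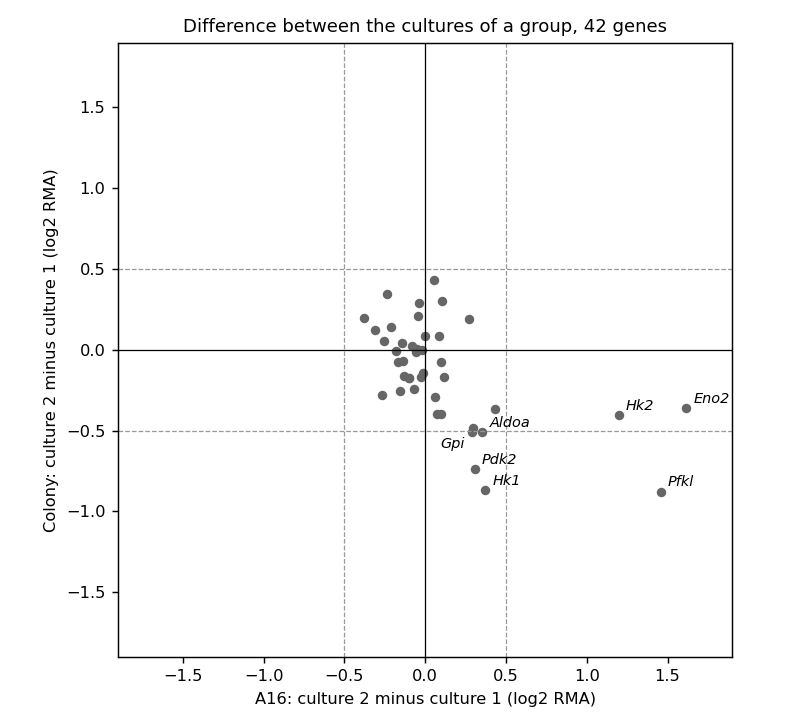
Difference between the cultures of a group (culture 2 minus culture 1, log2 RMA intensity) in A16 on the horizontal and in Colony cells on the vertical axis, for the brightest probe set of 42 genes. Dashed lines mark 0.5. The 7 named genes lie to the lower right, with Pfkl beyond the line in both groups.

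Of 38 further genes around the path, 33 were measured, 3 rose (9.09%, beside 4.36% of all genes), 0 fell (beside 4.75%) and 30 were not called. The 3 were Gpd2, the mitochondrial glycerol 3-phosphate dehydrogenase that carries electrons from cytosolic NADH (log2 FC 1.33, SE 0.156, adjusted p = 0.00159), Gbe1, the branching enzyme of glycogen (1.24, SE 0.161, adjusted p = 0.00241), and Bpgm, which makes 2,3-bisphosphoglycerate (1.09, SE 0.126, adjusted p = 0.00151). Gpd2 read 407, 562 and 579 on A16 arrays and 1494, 1360 and 1235 on Colony arrays. Bpgm read 667, 741 and 674 on A16 arrays and 1511, 1437 and 1462 on Colony arrays. The groups did not overlap in either gene. Over the mean of all probe sets of a gene, 2 genes around the path were called higher in place of 3. Among regulators, Hif1a, the oxygen-controlled subunit of HIF-1, was higher by a log2 FC of 0.95 (adjusted p = 0.00272) and its partner Arnt had -0.86 (adjusted p = 0.0495), while Myc had -0.86 (adjusted p = 0.00509). All 3 stayed under the fold threshold, as did the next 3 genes. The basigin gene Bsg, whose product escorts lactate carriers to the membrane, had -0.66 (adjusted p = 0.0167), and Cs, the citrate synthase, -0.53 (adjusted p = 0.0314). Slc2a8, a further glucose transporter, had 0.59 (adjusted p = 0.0223).

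The deposited PLIER summary of the same arrays gave other values for some dim probe sets. Pgam2, the muscle phosphoglycerate mutase, read 56.8, 55.6 and 55.8 on A16 arrays and 62.2, 56.2 and 53.6 on Colony arrays by RMA, a log2 FC of 0.01. By PLIER it read 36.9, 37.5 and 27.8 on A16 arrays and 106, 121 and 141 on Colony arrays, and it was called higher (log2 FC 1.56 on log2(value + 16), adjusted p = 0.00226). Pck2 and Ldhb fell in both summaries, with -2.41 and -1.27 by PLIER. Present or absent calls were not used, so which of the 11 genes below the median brightness (Slc2a3, Slc2a4, Pfkfb2, Aldoc, Pgam2, Pklr, Slc16a3, Pdk4, Pck1, Fbp1 and Fbp2) lie above background is not known.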

How the data were processed

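RNA of F111 A16 and Colony cells was measured on 6 Affymetrix rat arrays. The authors deposited 2 summaries of every array, RMA and PLIER, each as linear intensity and without a stated version. RMA intensity was used as log2(value) and PLIER intensity as log2(value + 16). The table holds 31099 probe sets, of which 57 are controls. The other 31042 were tested by limma 3.58.1 (lmFit, eBayes; R 4.3.3) with 2 cultures per group and no filter on dim values, and all adjusted p-values are limma's. A single symbol marks 20826 probe sets, 436 have several and 9780 none. Older symbols were updated with RefSeq's gene table (GRCr8). The genes, lists and tests were chosen with earlier results of these data known. Values per array are given for genes with a called or disagreeing probe set, for genes with an adjusted p under 0.05, and for Hk2, Pfkm, Pdk1 and Slc2a1, which the paper names. Values per array of Hk1, Pfkl, Pfkp, Eno2, Ldha, Pdha1, Pgam2, Gpd2, Bpgm and Csf1r were chosen after they were seen. No scan date is given, so no array batch was tested. The fit was tested on simulated data. The number of arrays limits the precision. Alternatives were the PLIER values, other uses of the technical array, a replicate block, each culture left out, a filter on dim probe sets, other scalings, a mean-variance trend and an unmoderated test.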

Additional observations from a re-analysis of the deposited data

How the results depend on the processing

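Pck2, Ldhb and Pfkm 1386961_at were called lower under all 16 alternative fits of single probe sets, the unmoderated test at its unadjusted p. The next counts follow the call alone, so a value that crossed only the adjusted p threshold counts as kept. Among such values were Eno3 by PLIER (adjusted p = 0.0739) and Tpi1 with the technical arrays left out (adjusted p = 0.0558). Of the values of the 20 named probe sets under these fits, 294 kept their direction and their call or lack of one, 2 lost the call, 18 gained one and 4 turned in sign. The 4 were small values, Pfkm 1384632_at with 0.016 by PLIER and from -0.086 to 0.028 with 1 culture left out (0.028 without Colony replicate 1, 0.010 without A16 replicate 1), and Pfkfb3 1397082_at with -0.21 by PLIER. Genes called higher, like probe sets, numbered 2 with the 6 arrays as separate samples, with the technical arrays averaged with replicate 2 or left out, and with quantile normalization, where Pc joined Pdk4. They numbered 0 when the dimmest 40 percent of probe sets, Pdk4 among them, were left out, and genes called higher numbered 0 over the mean of all probe sets of a gene. In both cases, and with scaling on the brightest probe sets or a mean-variance trend, 3 genes were called lower, with Hk2 added. Pfkfb3 1369794_a_at gained a call in 7 of 16 fits. By PLIER the count stayed at 1 but the gene was Pgam2 in place of Pdk4, and 1 gene around the path was called lower. With no fold threshold 5 genes were higher and 4 lower. An unmoderated test of the same cultures gave 0 calls of any kind after Benjamini-Hochberg, and 1 gene higher and 2 lower at an unadjusted p under 0.05. Leaving out 1 culture at a time gave 0 to 2 genes and 0 to 2 probe sets higher, 2 to 4 genes and 4 to 7 probe sets lower, and 0 to 1 genes around the path lower. Such a fit has 1 culture in a group, which is assumed to vary like the other group. The extremes came without A16 replicate 1 (0 higher, 4 lower, with Hk2 and Pfkl added) and without Colony replicate 2 (2 higher, with Pc added).

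The labels state no pairing of same-numbered cultures. The correlation of their deviations from the group means, over all probe sets, was -0.15. With 2 cultures per group this value cannot show whether same-numbered cultures were handled together. With a replicate block 1 gene was called higher and 3 lower, with Hk2 added (log2 FC -1.19, adjusted p = 0.0321). A crossed replicate block, chosen after seeing the data, also gave 1 and 3. The limits are 2 cultures per group, no measure of background, and probe sets of 1 gene that read different values, for which the cause was not tested.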
